A study of Mus musculus with 40 samples.

Results

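Messenger RNA of 7 GABA-A receptor subunits was followed in 40 libraries of mouse brain RNA. The genes were Gabra2, Gabra3, Gabra4 and Gabra5 for alpha subunits, Gabrb1 and Gabrb2 for beta subunits, and Gabrd for the delta subunit. They were chosen by symbol and matched to the deposited table by Ensembl gene ID without its version, which found 7 of the 56980 genes listed, and all 7 passed the filter on low counts that left 17880 genes for testing. The tissue is labelled brain with all cell types, and the title of the series names the medial prefrontal cortex. All mice were female wild type C57BL/6J, an inbred laboratory strain, and each group held 5 libraries.

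At both ages there were mice on oral antibiotics (Abx) and morphine, mice on water (H2O) and morphine, mice on Abx and saline, and mice on H2O and saline. Adults entered on postnatal day 55 and adolescents on postnatal day 25. Morphine, an opioid, was given under the skin at 15 mg/kg, and the injections of morphine or saline ran for 5 days. The labels do not name the antibiotics. The design asks how age, antibiotic treatment and morphine bear on transcripts of this brain region. The labels do not say whether each library came from its own mouse, so a p-value here speaks only to the spread among libraries, which may be technical. Comparisons at the same age share libraries and are not independent of each other.

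GABA-A receptors are chloride channels of 5 subunits that open when the inhibitory transmitter GABA binds between an alpha and a beta subunit. Receptors with the alpha2 or alpha3 subunit and a gamma subunit sit largely at synapses and respond to benzodiazepines such as diazepam. The alpha5 subunit is mostly found outside synapses and is abundant in hippocampus and deep cortical layers, while alpha4 and delta form extrasynaptic receptors that carry tonic inhibition and respond to neurosteroids. Beta subunits are needed for assembly and form part of the GABA site. C57BL/6J mice are known to carry a spontaneous deletion in an intron of Gabra2 that lowers its transcript in brain. As all 8 groups are of that strain, the background applies to every Gabra2 value given here.

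The libraries held 8.64 to 12.1 M counts (M for mega), so that 3 counts in a library stood for 0.248 to 0.347 CPM (counts scaled to a common library total). Markers of cortical tissue were read in every library. Slc17a7, the vesicular glutamate transporter of cortical excitatory neurons, averaged 1765 CPM over the 40 libraries, and Gad1, which makes GABA in inhibitory neurons, averaged 264 CPM. Isl1, a marker of striatal neurons, was at 0 in 33 libraries. In the group of adolescents on Abx and morphine single libraries weighed on results over all genes: of the 1351 genes called between that group and adolescents on H2O and morphine, the count was 634 without replicate 2 and 2263 without replicate 5. Results for the subunits are therefore also given without these libraries where they change.

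To compare subunits with each other, CPM was divided by the length of each gene's exons in kilobases. Gabra3 had the highest level per length, with a median of 42.8 CPM per kb over the 40 libraries. Gabrb2 followed at 22.9, Gabra5 at 21.0, Gabrd at 18.9, Gabra4 at 18.8, Gabrb1 at 12.1 and Gabra2 at 7.36 CPM per kb. Of the neighbours in this order, Gabra3 was above Gabrb2, Gabra4 above Gabrb1 and Gabrb1 above Gabra2 in 40 of 40 libraries. The middle was not settled: Gabrb2 was above Gabra5 in 33 libraries, Gabra5 above Gabrd in 29 and Gabrd above Gabra4 in 22. With the length of the longest transcript in place of all exons, Gabra4 moved from place 5 to place 3.

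**Figure D1:**
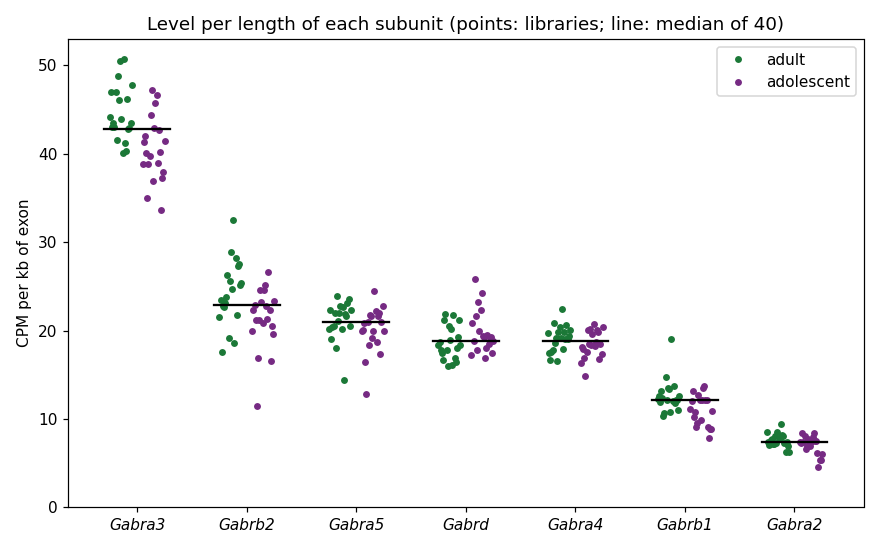
CPM per kb of exon (vertical axis) of the 7 subunit genes (horizontal axis), with 1 point for each library, adults in green and adolescents in purple, and a line at the median of the 40 libraries. Gabra3 stands alone at the top with a median of 42.8, and Gabra2 lies lowest with a median of 7.36.

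Spread within groups also differed between subunits. The mean coefficient of variation of CPM within a group was 6.78% for Gabra4, 7.32% for Gabra3 and 7.57% for Gabra2. It was 9.60% for Gabrd, 10.7% for Gabra5, 11.3% for Gabrb1 and 13.8% for Gabrb2. The alpha subunits other than Gabra5 were thus read with the least spread and Gabrb2 with the most. Over all 40 libraries Gabra2 ranged from 35.1 to 71.9 CPM, Gabrb1 from 109 to 263 CPM and Gabrb2 from 73.3 to 207 CPM. The ratio of the highest to the lowest group mean was 1.51 for Gabrb1, 1.5 for Gabra2, 1.36 for Gabrb2, and between 1.19 and 1.23 for the other 4 genes. For Gabra2, Gabra3 and Gabrb1 the lowest group mean was that of adolescents on Abx and morphine.

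**Figure D2:**
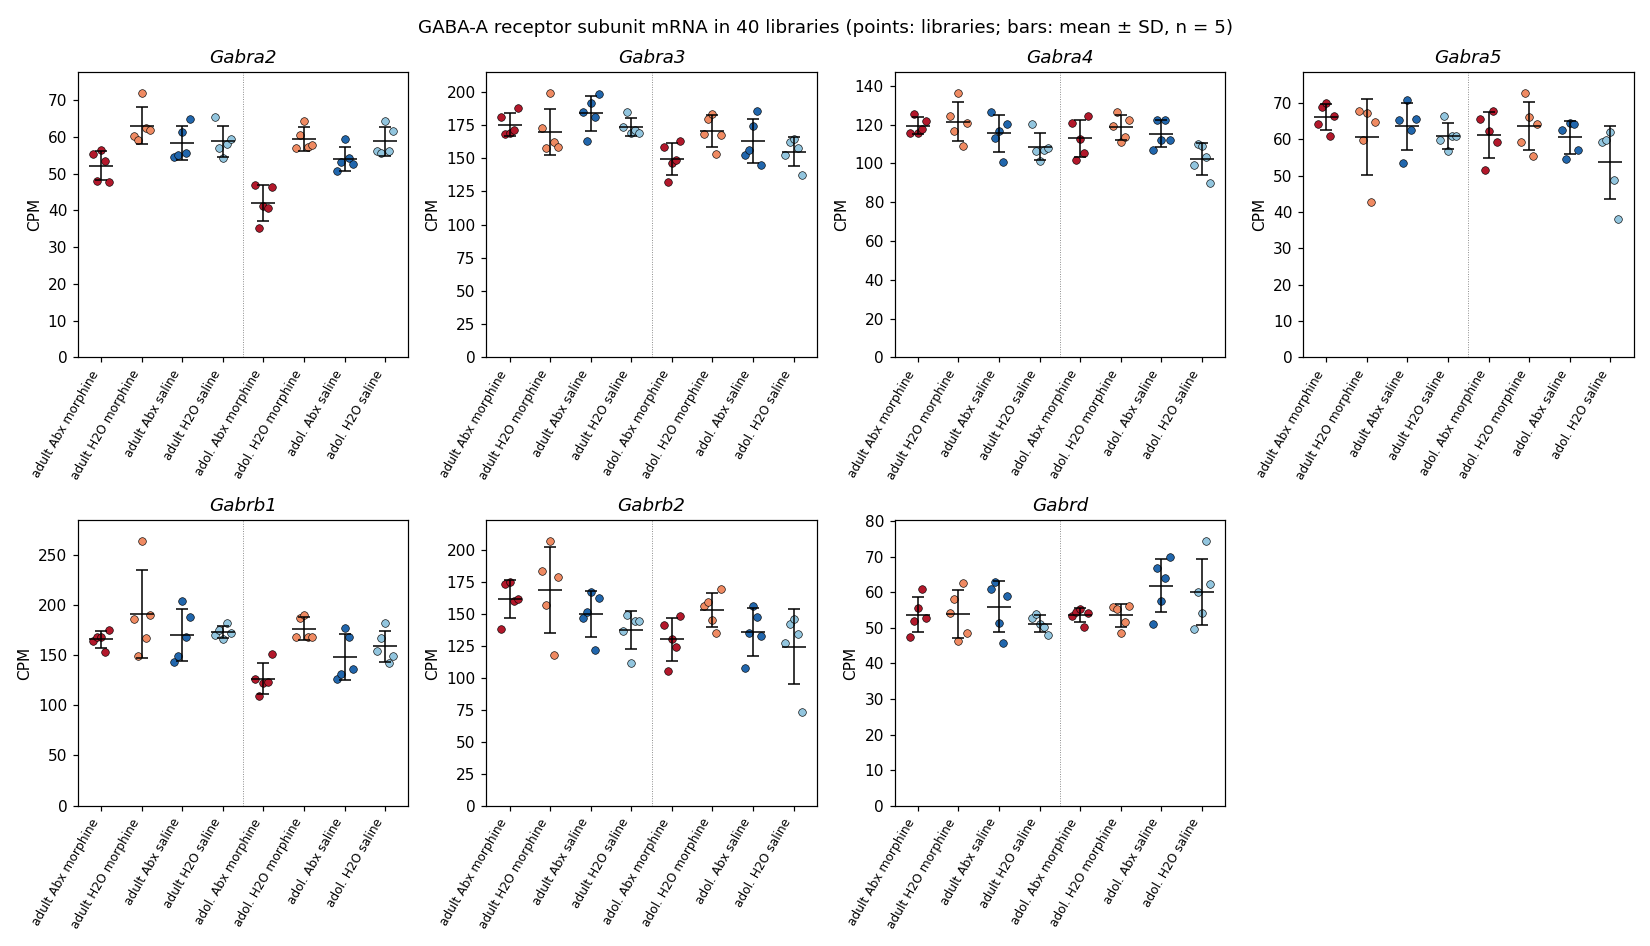
CPM (vertical axes, from 0) of each subunit gene in the 8 groups (horizontal axes), adults left of the dotted line and adolescents right of it, with 1 point for each library and bars for the mean ± SD of 5 libraries. Gabra2 in adolescents on Abx and morphine lies at 42.1 ± 4.86 CPM, under the other 7 groups, whose means run between 52.2 and 63.0 CPM.

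The genes of 3 members lie near each other. In the RefSeq annotation of GRCm38.p6, Gabra2, Gabra4 and Gabrb1 share a stretch of 1.40 Mb on chromosome 5 with Gabrg1, a gamma subunit gene, and Cox7b2, a cytochrome c oxidase gene. Gabra4 and Gabrb1 run away from each other and their spans overlap by 388 bases. By the exon models used for lengths 46 bases of exon lie in both, and as the strand setting of the counting is not given, reads from those bases are uncertain. Gabra5 is on chromosome 7, Gabrb2 on chromosome 11, Gabrd on chromosome 4 and Gabra3 on chromosome X.

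The promoters of the 3 neighbours on chromosome 5 are shown because Gabra2 and Gabrb1 were both called in comparisons that follow, while Gabra4, which lies between them, did not pass the test in any of the 21 comparisons made. Each window covers 300 bases, most of them before an annotated start, and is given in the direction of transcription, from RefSeq on GRCm38.p6. Capitals mark GC boxes (GGGCGG, the site read by SP1-type factors) and CCAAT boxes, on either strand.
Gabra2, chr5:71095800-71096099, - strand: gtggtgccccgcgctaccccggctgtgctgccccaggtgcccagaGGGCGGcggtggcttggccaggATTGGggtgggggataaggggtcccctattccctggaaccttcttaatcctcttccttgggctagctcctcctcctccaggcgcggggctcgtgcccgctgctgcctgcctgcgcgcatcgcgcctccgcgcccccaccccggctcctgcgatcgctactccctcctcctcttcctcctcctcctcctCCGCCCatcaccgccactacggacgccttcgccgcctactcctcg
Gabra4, chr5:71658259-71658558, - strand: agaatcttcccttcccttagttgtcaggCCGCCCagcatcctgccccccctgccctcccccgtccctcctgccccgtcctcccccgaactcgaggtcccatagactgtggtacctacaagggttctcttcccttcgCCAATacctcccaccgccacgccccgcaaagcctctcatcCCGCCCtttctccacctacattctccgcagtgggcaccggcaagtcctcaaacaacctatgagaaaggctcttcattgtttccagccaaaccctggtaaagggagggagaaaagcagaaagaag
Gabrb1 first start, chr5:71657671-71657970, + strand: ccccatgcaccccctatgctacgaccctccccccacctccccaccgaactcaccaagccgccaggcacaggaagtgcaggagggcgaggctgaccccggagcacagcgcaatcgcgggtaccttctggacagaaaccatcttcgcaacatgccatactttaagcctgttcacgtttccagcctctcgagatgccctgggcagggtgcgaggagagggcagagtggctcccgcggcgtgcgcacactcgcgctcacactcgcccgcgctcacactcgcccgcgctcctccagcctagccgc
Gabrb1 second start, chr5:71699682-71699981, + strand: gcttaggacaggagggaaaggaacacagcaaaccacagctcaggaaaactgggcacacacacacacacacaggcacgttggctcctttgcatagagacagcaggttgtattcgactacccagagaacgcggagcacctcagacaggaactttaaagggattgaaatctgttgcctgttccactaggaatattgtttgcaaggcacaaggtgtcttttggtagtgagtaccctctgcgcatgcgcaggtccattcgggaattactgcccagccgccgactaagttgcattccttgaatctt

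The Gabra2 and Gabra4 windows each held 2 GC boxes and 1 CCAAT box, and neither Gabrb1 window held one of these motifs. G and C made up 70.0% of the Gabra2 window, 58.7% of that of Gabra4, and 66.0% and 50.3% of those of Gabrb1, against a median of 52.7% over all windows. Windows were found for 6 of the 7 genes, 10 in all, among 32851 in the table, and each was searched on both strands. GC boxes were in 3 of the 10 and in 35.7% of all windows. CCAAT boxes were in 6 of the 10 and in 37.4% of all. TATAAA, the TATA box, was in 3 of the 10 and in 13.6% of all. The EGR motif GCGTGGGCG, the cyclic AMP response element TGACGTCA and the E-box CACGTG were in 0 of the 10 and in 0.612%, 1.79% and 7.15% of all. These matches describe letters in the windows and say nothing of binding.

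In adolescents on morphine, antibiotics went with less Gabra2 and less Gabrb1. A gene was called at an adjusted p under 0.05 in edgeR's quasi-likelihood test over all genes tested. In this comparison 2 of the 7 subunits were called, both lower, while 4.02% of all genes tested were called lower. All 7 log2 fold changes were negative, with a median of -0.19 against -0.01 over all genes. Of all genes tested 47.8% had a positive fold change. The subunits varied together within groups, so their 7 signs are not independent readings.

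Gabra2 was read at 46.9, 35.1, 41.1, 40.7 and 46.5 CPM in adolescents on Abx and morphine, against 56.8, 60.5, 64.4, 57.2 and 57.7 CPM in adolescents on H2O and morphine. Every library on Abx lay under every library on H2O, which was the case for 3.46% of all genes tested. The log2 fold change was -0.50 ± 0.07 (SE; 95% interval -0.64 to -0.35; edgeR adjusted p = 7.31e-06), or a fold of 0.709, and its p was number 16 in rank of 17880. In bulk tissue, fewer cells that express a gene and less of its RNA per cell cannot be told apart.

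Gabrb1 was read at 126, 109, 123, 123 and 151 CPM in adolescents on Abx and morphine, against 168, 186, 190, 168 and 167 CPM in adolescents on H2O and morphine. Again no library of the 2 groups overlapped, and replicate 5 was the highest on Abx. The log2 fold change was -0.48 ± 0.11 (SE; 95% interval -0.70 to -0.25; edgeR adjusted p = 0.00598). It was -0.54 without replicate 5 of the Abx group and -0.24 with 3 surrogate variables, which stand for unlabelled sources of variation, in the model (edgeR adjusted p = 0.0408).

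The other 5 subunits did not pass the test here. The nearest was Gabra3, at 149.5 ± 11.9 CPM on Abx and 170.3 ± 11.9 CPM on H2O (SD, n = 5 each), a log2 fold change of -0.19 ± 0.07 (SE; edgeR adjusted p = 0.0732). It was called without replicate 4 of the H2O group (edgeR adjusted p = 0.0497), without replicate 5 of the Abx group (0.0320) and by limma-voom (0.0250). Gabrb2 stood at -0.23 ± 0.14, Gabra4 at -0.07 ± 0.06, Gabra5 at -0.05 ± 0.10 and Gabrd at -0.0016 ± 0.09 on the log2 scale (SE). Their 95% intervals all include 0, and that of Gabrd ran from -0.18 to 0.18.

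As a share of the 4 alpha subunit genes in CPM per kb, Gabra2 held 6.63% ± 0.289 in adolescents on Abx and morphine and 8.45% ± 0.405 in adolescents on H2O and morphine (SD, n = 5 each). The libraries ranged from 6.35% to 6.96% on Abx and from 8.0% to 8.94% on H2O, without overlap. In adolescents on saline the share was 8.06% ± 0.451 on Abx and 9.44% ± 1.16 on H2O (SD, n = 5 each). In adults on morphine it was 7.32% ± 0.648 on Abx and 9.01% ± 0.626 on H2O, and in adults on saline 8.05% ± 0.436 on Abx and 8.53% ± 0.510 on H2O (SD, n = 5 each).

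Markers of other cell types were read beside these values. Over all genes, 4119 of 17880 had an unadjusted edgeR p under 0.05 in this comparison. Oligodendrocyte markers had positive fold changes in 11 of 12 genes with a median of 0.28, with 0 called by edgeR or limma-voom, 1 by DESeq2 (Mal) and 2 with an unadjusted edgeR p under 0.05. Their summed level was 1423 to 2204 CPM in adolescents on Abx and morphine, against 1327 to 1607 CPM on H2O and morphine. Excitatory neuron markers had negative fold changes in 8 of 14 genes, 1 called lower (Neurod6), and summed to 6904 to 7412 CPM on Abx and 6937 to 7150 CPM on H2O. Interneuron markers had negative fold changes in 7 of 16 genes, 1 called lower (Cck), and summed to 1572 to 1714 CPM on Abx and 1575 to 1759 CPM on H2O.

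Of 12 astrocyte markers 9 had negative fold changes and 2 were called lower (Aqp4 and S100b), and the list summed to 3941 to 4949 CPM on Abx and 4467 to 5004 CPM on H2O. Of 11 striatal neuron markers 10 were tested, 5 of them with negative fold changes and a median of 0.11 over the 10. The list was called higher in 2 genes (Ppp1r1b and Pde10a), while 3.54% of all genes tested were called higher and 4.02% lower. It summed to 255.9 to 270.7 CPM on Abx and 223.3 to 246.5 CPM on H2O. Of 10 markers of oligodendrocyte precursors 7 had negative fold changes and 1 was called lower (Tnr), and they summed to 524 to 607 CPM on Abx and 590 to 632 CPM on H2O. Of 11 microglial markers 10 were negative and 1 was called lower (C1qa, a complement gene, at -0.41), with sums of 363 to 451 CPM on Abx and 404 to 472 CPM on H2O.

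Endothelial markers were negative in 7 of 10 genes with a median of -0.19, and those of mural cells and fibroblasts in 8 of 10 with a median of -0.17. Over both lists edgeR called 0, with 1 endothelial and 0 mural or fibroblast genes under an unadjusted p of 0.05, DESeq2 also called 0, and limma-voom called 1 lower (Tek). The endothelial list summed to 318 to 398 CPM on Abx and 330 to 463 CPM on H2O, and the mural and fibroblast list to 225 to 281 CPM on Abx and 256 to 365 CPM on H2O. The summed striatal markers did not overlap between the groups, while those of the other 8 lists did. Of single genes tested, 2.46% lay wholly above on Abx and 3.46% wholly below. None of the markers of these lists apart from Isl1 was at 0 in any library. The part of cell make-up in the subunit values was not tested.

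**Figure D3:**
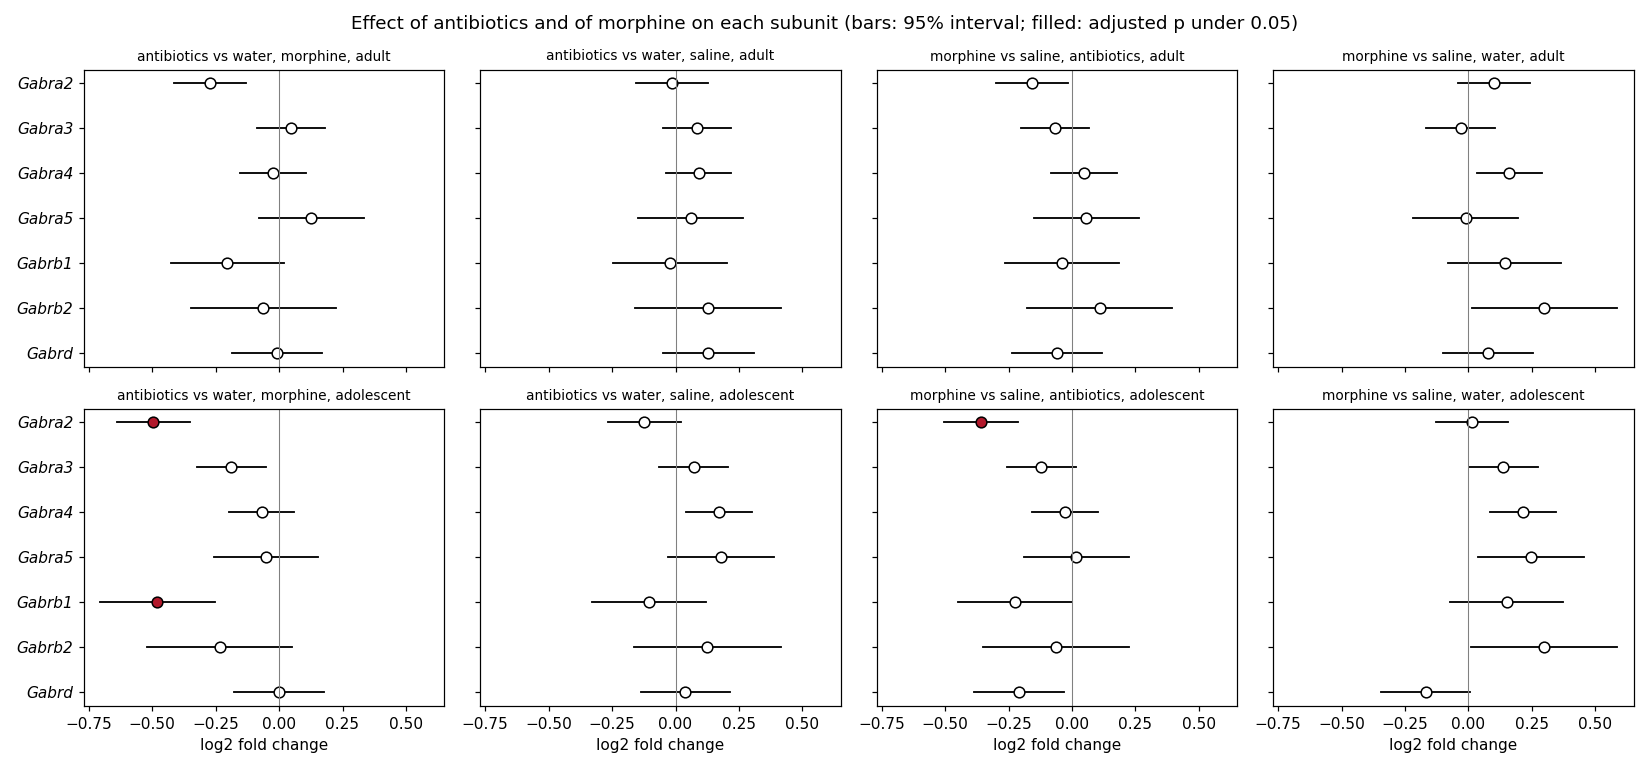
Log2 fold change (horizontal axes) of each subunit for antibiotics over water and for morphine over saline, with adults in the top row and adolescents in the bottom row. Points are edgeR estimates, bars their 95% intervals, and filled points mark an adjusted p under 0.05: Gabra2 at -0.50 and Gabrb1 at -0.48 for antibiotics under morphine in adolescents, and Gabra2 at -0.36 for morphine on antibiotics in adolescents.

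Morphine on antibiotics was compared with saline on antibiotics in adolescents, and Gabra2 was called lower. This was 1 of 7 subunits, while 1.34% of all genes tested were called lower. Gabra2 stood at the Abx and morphine values given above, against 50.7, 53.1, 59.3, 54.1 and 52.7 CPM on Abx and saline. Each library on morphine was under each on saline, which held for 1.9% of all genes tested. The log2 fold change was -0.36 ± 0.07 (SE; 95% interval -0.50 to -0.21; edgeR adjusted p = 0.00225). Gabrb1 had 126, 132, 177, 168 and 136 CPM on Abx and saline, which overlapped its values on Abx and morphine, and a log2 fold change of -0.22 ± 0.11 (SE; edgeR adjusted p = 0.310). Gabrd was at 53.5 ± 1.97 CPM on Abx and morphine and 61.8 ± 7.52 CPM on Abx and saline (SD, n = 5 each), with a log2 fold change of -0.21 ± 0.09 (SE; edgeR adjusted p = 0.206). The other 4 lay between -0.12 (Gabra3) and 0.02 (Gabra5). Oligodendrocyte markers had positive fold changes in 11 of 12 genes there, 1 called higher (Mal), and summed to 1423 to 2204 CPM on Abx and morphine and 1206 to 1728 CPM on Abx and saline. Of the other cell type markers, Ppp1r1b (0.30), Pde10a (0.26) and Cux2 (0.34) were called higher, the first 2 striatal and the third of upper cortical layers. Cck (-0.26) of interneurons and Tek (-0.42) of endothelium were called lower. Of all genes tested, 1.58% were called higher there. Striatal markers summed to 255.9 to 270.7 CPM on Abx and morphine and 223.2 to 264.1 CPM on Abx and saline. The part of these markers in the subunit values was not tested.

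On water, morphine did not go with less of either gene in adolescents. Gabra2 was at 59.3 ± 3.18 CPM on H2O and morphine and 58.7 ± 3.95 CPM on H2O and saline (SD, n = 5 each), a log2 fold change of 0.01 ± 0.07 (SE; 95% interval -0.13 to 0.15). In edgeR 0 of 7 subunits were called, while 0.319% of all genes tested were, and DESeq2 and limma-voom called 0 as well. An unadjusted p under 0.05 was reached by 4 of the 7, all with positive fold changes, and by 2400 of the 17880 genes. Gabra4 was read at 119, 126, 111, 113 and 122 CPM on H2O and morphine, against 99.3, 110, 109, 103 and 90.1 CPM on H2O and saline. Its libraries on morphine all lay above those on saline, as did those of 1.36% of all genes tested. Its log2 fold change was 0.21 ± 0.06 (SE; 95% interval 0.08 to 0.34; edgeR adjusted p = 0.153). The others were Gabrb2 at 0.30 ± 0.14, Gabra5 at 0.25 ± 0.10 and Gabra3 at 0.14 ± 0.07 (SE), with edgeR adjusted p between 0.296 and 0.361. Without replicate 5 of the H2O and saline group, which had the lowest values of these genes, Gabrb2 was at 0.15, Gabra5 at 0.14, Gabra3 at 0.09 and Gabra4 at 0.16. With 3 surrogate variables Gabrb2 was at 0.02 and Gabra5 at 0.07. Gabrb1 was at 0.15 ± 0.11 and Gabrd at -0.17 ± 0.09 (SE). Under other settings and with single libraries left out, Gabra3 ran from 0.01 to 0.16, Gabra4 from 0.12 to 0.24 and Gabrb1 from -0.05 to 0.19.

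Antibiotics without morphine were compared in adolescents on saline. In edgeR 0 of 7 subunits were called, against 0.0391% of all genes tested, and DESeq2 and limma-voom called 0. The only subunit with an unadjusted p under 0.05 was Gabra4, at 115.2 ± 6.95 CPM on Abx and saline and 102.3 ± 8.04 CPM on H2O and saline (SD, n = 5 each), a log2 fold change of 0.17 ± 0.06 (SE; edgeR adjusted p = 0.363). Over all genes, 1744 of 17880 had an unadjusted p under 0.05. Gabra2 was at -0.12 ± 0.07 and Gabrb1 at -0.10 ± 0.11 on the log2 scale (SE), with 95% intervals of -0.26 to 0.02 and -0.33 to 0.12. The other 4 lay between 0.04 (Gabrd) and 0.18 (Gabra5).

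With both treatments together, set against adolescents on H2O and saline, Gabra2 was lower and the remaining subunits did not pass. This was 1 of 7 called lower, against 3.6% of all genes tested. Gabra2 had 56.1, 55.6, 64.3, 56.1 and 61.5 CPM on H2O and saline, all above its values on Abx and morphine, and such a separation downward held for 2.15% of all genes tested. The log2 fold change was -0.48 ± 0.07 (SE; edgeR adjusted p = 8.75e-06). Gabrb1 had 153, 167, 182, 142 and 149 CPM on H2O and saline, with 1 of the 5 libraries on Abx and morphine among them. Its log2 fold change was -0.33 ± 0.11 (SE; edgeR adjusted p = 0.0661), and it was called without replicate 5 of the Abx and morphine group (edgeR adjusted p = 0.0161) and by DESeq2 (0.0284). The other 5 lay between -0.17 (Gabrd) and 0.19 (Gabra5).

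Markers called in the same comparison came from 7 of the 9 cell type lists. Of 12 astrocyte markers 5 were called lower, among them S100b (-0.34), Sox9 (-0.47) and Aqp4 (-0.47). Olig1 (-0.42) of oligodendrocyte precursors, C1qa (-0.45) of microglia, Cldn5 (-0.61) and Tek (-0.43) of endothelium, and Npy (-0.41) of interneurons were also called lower. Among those called higher were Pde10a (0.42) and Ppp1r1b (0.48) of striatal neurons, Neurod2 (0.31) of excitatory neurons, Vip (0.29) of interneurons and Slc2a1 (0.42) of endothelium. Of all genes tested, 3.33% were called higher and 3.6% lower. All 11 microglial and all 10 mural and fibroblast markers had negative fold changes. Summed striatal markers ran from 255.9 to 270.7 CPM on Abx and morphine and from 218.3 to 232.5 CPM on H2O and saline, and summed microglial markers from 363 to 451 CPM and from 397 to 607 CPM in the same groups. The part of these markers in the Gabra2 value was not tested.

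Whether the effect of morphine depended on the drink was tested by the interaction, the morphine effect on antibiotics minus that on water. In adolescents the interaction of Gabra2 was -0.37 ± 0.10 on the log2 scale (SE; 95% interval -0.58 to -0.17; edgeR adjusted p = 0.0482). It was the only 1 of 7 called, while 0.615% of all genes tested were called with a negative interaction. The adjusted p lay close to the threshold: it was between 0.0507 and 0.139 when any of 16 of the 20 adolescent libraries was left out, 0.0607 with only the compared groups in the fit, and 0.411 with 3 surrogate variables, with an interaction of -0.23. Gabrb1 had the same size of interaction in this fit with a larger error, -0.38 ± 0.16 (SE; edgeR adjusted p = 0.211). All 7 interactions were negative in this fit, with a median of -0.26 against -0.01 over all genes, of which 48.3% had a positive interaction. Under other settings and with single libraries left out, Gabrb1 ran from -0.44 to -0.04 and Gabra3 from -0.28 to -0.06. Gabra4 ran from -0.27 to -0.17, Gabra5 from -0.27 to -0.04, Gabrb2 from -0.42 to -0.07 and Gabrd from -0.12 to 0.03. The interaction uses the same Abx and morphine libraries as the comparisons above.

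In adults no subunit was called for antibiotics or for morphine. Antibiotics under morphine called 0 of 7 in edgeR, against 0.028% of all genes tested, and 0 in DESeq2 and limma-voom. Over all genes, 1434 of 17880 had an unadjusted p under 0.05 in that comparison. Gabra2, the only subunit there with an unadjusted p under 0.05, was read at 55.3, 48.1, 56.3, 53.5 and 47.8 CPM in adults on Abx and morphine, against 60.1, 59.0, 71.9, 62.5 and 61.7 CPM in adults on H2O and morphine. The groups did not overlap, as was so for 0.811% of all genes tested in that direction. The log2 fold change was -0.27 ± 0.07 (SE; 95% interval -0.41 to -0.13; edgeR adjusted p = 0.187). It was -0.22 without replicate 3 of the H2O and morphine group, the library with the highest Gabra2 and Gabrb1. Apart from Gabrb1, the rest lay between -0.06 (Gabrb2) and 0.13 (Gabra5).

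Gabrb1 in adults had 164, 168, 168, 153 and 175 CPM on Abx and morphine, against 186, 149, 263, 167 and 189 CPM on H2O and morphine. The groups overlapped, and replicate 3 at 263 CPM stood above the rest of its group. The log2 fold change was -0.20 ± 0.11 (SE; edgeR adjusted p = 0.675), and -0.06 without replicate 3. In the other comparisons within adults edgeR, DESeq2 and limma-voom each called 0 of 7 subunits. The share of all genes called by edgeR was 0.0503% for antibiotics in saline, 0.475% for morphine on water, 0.213% for morphine on antibiotics, 1.19% for both treatments together and 0 for the interaction. An unadjusted p under 0.05 was reached by 0 subunits for antibiotics in saline, where the 7 fold changes lay between -0.02 (Gabrb1) and 0.13 (Gabrd). Those that reached it elsewhere were Gabra4 at 0.16 ± 0.06 and Gabrb2 at 0.30 ± 0.14 for morphine on water, and Gabra2 at -0.16 ± 0.07 for morphine on antibiotics. For both treatments they were Gabra2 at -0.17 ± 0.07 and Gabra4 at 0.14 ± 0.06, and for the interaction Gabra2 at -0.26 ± 0.10 (log2 scale, SE). Of all 17880 genes, 1803 reached it for antibiotics in saline, 1978 for morphine on water and 1258 for morphine on antibiotics. For both treatments 2498 did, and for the interaction 1214.

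The ages were not shown to differ in these effects. The adult minus the adolescent effect of antibiotics under morphine was 0.22 ± 0.10 for Gabra2 (SE; 95% interval 0.02 to 0.43; edgeR adjusted p = 0.874) and 0.28 ± 0.16 for Gabrb1 (SE; 95% interval -0.04 to 0.59; 0.875). Of the 7 subunits 0 were called by edgeR, DESeq2 or limma-voom, with 2 under an unadjusted p of 0.05, Gabra2 and Gabra3, and 0.00559% of all genes tested were called. Over all genes, 1010 of 17880 were under that unadjusted p. For the effect of morphine on antibiotics the age difference of Gabra2 was 0.20 ± 0.10 (SE; 95% interval -0.0027 to 0.40; edgeR adjusted p = 0.783). There 0 of 7 were called by each of the 3 tools, 0 had an unadjusted p under 0.05, and the share of all genes called was 0. Over all genes, 1151 of 17880 had an unadjusted p under 0.05 there.

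Adults and adolescents were then compared within each treatment. On Abx and morphine all 7 fold changes were positive, with a median of 0.23 against 0.01 over all genes, and 1 subunit was called higher, against 0.414% of all genes tested. Of all genes 52.0% had a positive fold change. The adolescent libraries here are the same Abx and morphine libraries as in the adolescent comparisons above. Gabra2, at 47.8 to 56.3 CPM in adults and 35.1 to 46.9 CPM in adolescents, was called with a log2 fold change of 0.31 ± 0.07 (SE; edgeR adjusted p = 0.0216). Gabrb1, at 153 to 175 CPM in adults and 109 to 151 CPM in adolescents, had 0.39 ± 0.11 (SE; edgeR adjusted p = 0.0695). Gabra3, at 168 to 188 CPM in adults and 132 to 163 CPM in adolescents, had 0.23 ± 0.07 (SE; edgeR adjusted p = 0.0727).

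The ages did not overlap in any of these 3 genes, while 1.81% of all genes tested stood wholly above in adults. Without replicate 5 of the adolescent group all 3 were called, with edgeR adjusted p of 0.0181 for Gabrb1 and 0.0283 for Gabra3. Gabra2 lost its call without replicate 2, 3 or 4 of the adolescent group or replicate 1 or 3 of the adult group, with edgeR adjusted p between 0.0523 and 0.0905. It also lost it with only the compared groups in the fit (edgeR adjusted p = 0.0602), where Gabrb1 was called (0.00489).

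In the other treatments edgeR, DESeq2 and limma-voom called 0 of 7 subunits between the ages. The share of all genes called by edgeR was 0.928% on H2O and morphine, 5.97% on Abx and saline and 0.257% on H2O and saline. An unadjusted p under 0.05 was reached by 2549, 3612 and 1788 of the 17880 genes, in the same order of treatments. On H2O and morphine 0 subunits had an unadjusted p under 0.05, and the 7 fold changes lay between -0.07 (Gabra5) and 0.14 (Gabrb2). On Abx and saline 1 had, Gabra3, at 183.5 ± 13.3 CPM in adults and 162.6 ± 16.7 CPM in adolescents (SD, n = 5 each; edgeR adjusted p = 0.112), and it was called without replicate 4 of the adolescent group (0.0446). On H2O and saline Gabra3 was at 173.3 ± 6.52 CPM in adults and 154.8 ± 10.9 CPM in adolescents (SD, n = 5 each; edgeR adjusted p = 0.373), with all adult libraries above all adolescent ones, as for 1.05% of all genes tested. The other subunit with an unadjusted p under 0.05 there was Gabrd, at 51.2 ± 2.30 CPM in adults and 60.1 ± 9.40 CPM in adolescents (SD, n = 5 each), a log2 fold change of -0.23 ± 0.09 (SE; edgeR adjusted p = 0.315).

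Averaged over the 4 treatments, 3 of 7 subunits were higher in adults, while 9.28% of all genes tested were called higher. Gabra3 had a log2 fold change of 0.14 ± 0.03 (SE; edgeR adjusted p = 0.00215), Gabra2 of 0.13 ± 0.04 (0.00839) and Gabrb1 of 0.21 ± 0.06 (0.00692). The largest of these is a fold of 1.16. The 4 treatments that enter these means were unequal. For Gabra2 the values were 0.31 on Abx and morphine, 0.09 on H2O and morphine, 0.11 on Abx and saline and 0.0005 on H2O and saline. In the same order Gabrb1 was at 0.39, 0.12, 0.21 and 0.12, and Gabra3 at 0.23, -0.01, 0.17 and 0.16. Gabrb2 was near the threshold at 0.18 ± 0.07 (SE; edgeR adjusted p = 0.0651), called by limma-voom (0.0420), with 3 surrogate variables (0.0138, at 0.11) and without replicate 3 of adults on H2O and saline (0.0485), replicate 4 of adults on Abx and saline (0.0471) or replicate 4 of adults on H2O and morphine (0.0242). Gabrd was the only subunit with a negative value, -0.09 ± 0.04 (SE; edgeR adjusted p = 0.163). With 3 surrogate variables Gabra2 (edgeR adjusted p = 0.0712) and Gabrb1 (0.0534) were no longer called, Gabrb1 at 0.10, and Gabra3 was called at 0.09 (0.0182). Oligodendrocyte markers moved with age in the same libraries, lower in adults in 9 of 12 genes with a median log2 fold change of -0.34. Their summed level per library ran from 853 to 1644 CPM over adults and from 1206 to 2278 CPM over adolescents. Of 10 markers of oligodendrocyte precursors 4 were also called lower, and all 11 microglial markers had negative fold changes, 1 called. Of all genes tested, 8.57% were called lower. The part of these markers in the subunit values was not tested.

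Averaged over both ages and both injections, antibiotics went with lower Gabra2 and Gabrb1. This was 2 of 7 subunits, while 4.23% of all genes tested were called lower. Gabra2 had a log2 fold change of -0.23 ± 0.04 (SE; 95% interval -0.30 to -0.15; edgeR adjusted p = 2.54e-05) and Gabrb1 of -0.20 ± 0.06 (SE; 95% interval -0.31 to -0.09; edgeR adjusted p = 0.0202). The 4 pairs that enter this mean were unequal: for Gabra2 they were -0.27 in adults on morphine, -0.01 in adults on saline, -0.50 in adolescents on morphine and -0.12 in adolescents on saline. For Gabrb1 they were -0.20, -0.02, -0.48 and -0.10 in the same order. The remaining 5 subunits lay between -0.01 and 0.08. With 3 surrogate variables Gabra5 was called higher, at 0.11 (edgeR adjusted p = 0.0181). Beside these values, 10 of 12 astrocyte markers were negative and 4 were called lower, with a median of -0.11, and they summed per library to 3941 to 5347 CPM on Abx and 4146 to 6444 CPM on H2O. All 11 microglial markers were negative, 1 called (C1qa), and 2 markers of oligodendrocyte precursors (Olig1 and Tnr) were called lower. Called higher were 2 striatal markers (Ppp1r1b and Pde10a), against 3.27% of all genes tested. The part of these markers in the subunit values was not tested.

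Morphine averaged over both ages and both drinks called 0 of 7 subunits in edgeR, DESeq2 and limma-voom, against 4.35% of all genes tested in edgeR. An unadjusted p under 0.05 was reached by 4 subunits in different directions, and by 3153 of the 17880 genes. Gabra2 was at -0.10 ± 0.04 (SE; edgeR adjusted p = 0.0958) and Gabrd at -0.09 ± 0.04 (0.275), while Gabra4 was at 0.10 ± 0.03 (0.0683) and Gabrb2 at 0.16 ± 0.07 (0.211). Gabra2 was called without replicate 3 of adolescents on H2O and morphine, replicate 1 or 5 of adolescents on Abx and morphine or replicate 3 of adults on H2O and morphine, and Gabra4 without replicate 4 of adults on H2O and morphine, with edgeR adjusted p between 0.0358 and 0.0486.

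The subunits also varied together within groups. These correlations are descriptions over the 40 libraries, which share RNA quality, depth and dissection within each library. After the group means were removed, Gabra3 and Gabrb1 had a Pearson's r of 0.77, Gabra4 and Gabrb2 of 0.76, Gabra5 and Gabrb2 of 0.74, and Gabra2 and Gabrb1 of 0.64. Gabrd ran against Gabra5, at -0.48, and against Gabrb1, at -0.42. Between Gabra2 and Gabra5 it was 0.23.

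**Figure D4:**
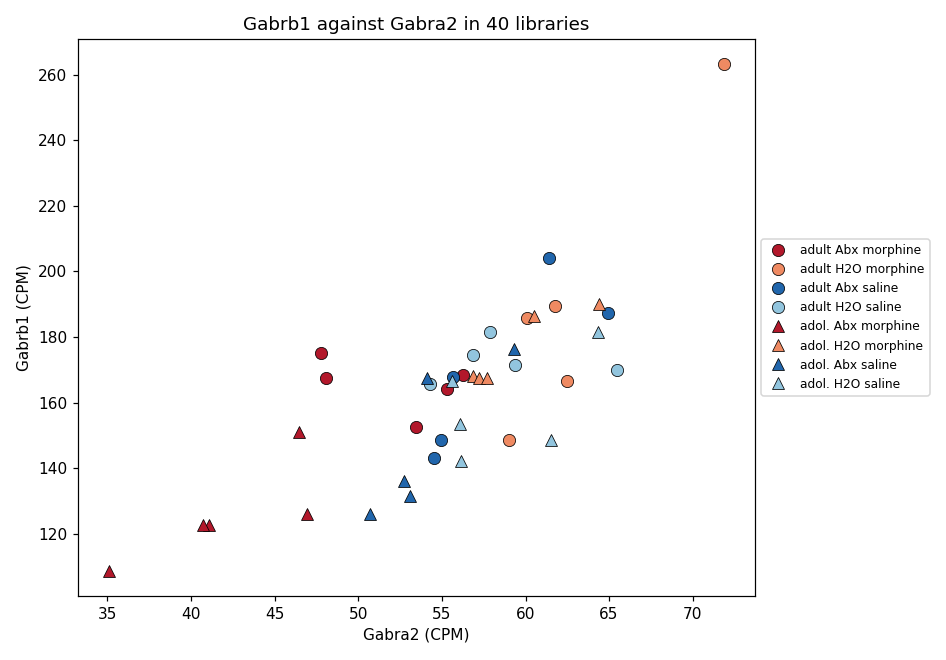
CPM of Gabrb1 (vertical axis) against CPM of Gabra2 (horizontal axis), with 1 point for each of the 40 libraries, coloured by treatment, with circles for adults and triangles for adolescents. The 5 adolescent libraries on Abx and morphine hold the lower left corner, at 35.1 to 46.9 CPM of Gabra2 and 109 to 151 CPM of Gabrb1, and replicate 3 of adults on H2O and morphine stands at the upper right with 71.9 and 263 CPM.

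For each subunit the genes with the most similar profile over the 40 libraries were sought among the 12577 genes that averaged 5 CPM or more, by Pearson's r of log2 CPM. Gabra2 was nearest to the noncoding RNA gene Dubr (0.85), Gmfb (0.83) and Mlec (0.83), and Gabra3 to Ttc3 (0.87), Cntn4 (0.85) and Rabgap1l (0.85). Among the nearest to Gabra4 were Epha4, an ephrin receptor (0.86), and Ppp3r1, the regulatory subunit of calcineurin (0.85). Gabra5 was nearest to Nsf, which recycles the vesicle fusion machinery (0.92), Sv2b (0.90) and Serinc1 (0.89). Gabrb1 was nearest to Uhmk1 (0.94), Cdk14 (0.92) and Shisa9 (0.89), and among the nearest to Gabrb2 were Plcb1, a phospholipase C (0.96), and Frrs1l (0.93). Gabrd had no such close companion: its nearest were Camk2n1, an inhibitor of CaM kinase II (0.75), Penk, the enkephalin precursor (0.75), and Hr (0.72).

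Gabrg1, the gamma subunit gene next to Gabra2 on chromosome 5, was also tested. For antibiotics under morphine in adolescents it was at -0.30 ± 0.11 on the log2 scale (SE; edgeR adjusted p = 0.0719), not called by edgeR or DESeq2 and called lower by limma-voom. With both treatments against H2O and saline, Gabrg1 was called lower at -0.39 ± 0.11 (SE; edgeR adjusted p = 0.0154).

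Genes that carry, anchor or supply the receptor were counted beside the subunits. Of 20 genes for scaffolds, assembly and trafficking of GABA-A receptors, 0 were called by edgeR for antibiotics under morphine in adolescents, with 13 negative fold changes, a median of -0.05 and 3 under an unadjusted p of 0.05, while 7.56% of all genes tested were called in either direction. An unadjusted p under 0.05 was reached there by 4119 of the 17880 genes. DESeq2 called 1 of the 20 (Iqsec3, higher) and limma-voom 3 (Iqsec3, Nlgn2 and Plcl1). In the interaction in adolescents 1 of the 20 was called, Iqsec3, a scaffold partner of gephyrin, at 0.36 ± 0.09 (SE; edgeR adjusted p = 0.0344), against 0.621% of all genes tested called higher. Of 7 genes for GABA synthesis, release and uptake, 0 were called for antibiotics under morphine by edgeR and DESeq2 and 1 (Slc6a11) by limma-voom, with 2 under an unadjusted edgeR p of 0.05. Slc6a11, the GABA transporter GAT-3 of astrocytes, was called lower with both treatments in adolescents, at -0.32 ± 0.08 (SE; edgeR adjusted p = 0.00614), and for antibiotics averaged over all pairs, at -0.19 ± 0.04 (0.00141). Of all genes tested, 3.6% were called lower in the first of these comparisons and 4.23% in the second. No other gene of that list was called by edgeR in either. Beside the first of these, 5 of 12 astrocyte markers were called lower, with a median of -0.28, and their part in the Slc6a11 value was not tested.

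With age, the same 20 scaffold and trafficking genes held 3 higher and 3 lower in adults, against 9.28% of all genes tested called higher and 8.57% called lower. The lower ones were Trak2, an adaptor for transport along microtubules, at -0.20 ± 0.03 (SE; edgeR adjusted p = 1.55e-07), Gabarapl2 at -0.13 ± 0.03 (0.00435) and Lhfpl4, which holds receptors at inhibitory synapses, at -0.08 ± 0.03 (0.0391). The higher ones included Ubqln1 at 0.12 ± 0.03 (SE; edgeR adjusted p = 0.00539) and Rdx, which anchors alpha5 receptors, at 0.09 ± 0.03 (0.0280). Among 5 genes of the GABA-B receptor, Kctd16, an auxiliary subunit, was higher at 0.23 ± 0.06 (SE; edgeR adjusted p = 0.00662). Of the 2 chloride transporter genes, Slc12a2 and Slc12a5, 0 were called by each of the 3 tools in that comparison or for antibiotics under morphine in adolescents, and 0 had an unadjusted p under 0.05.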

How the data were processed

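The 40 libraries were made from polyA RNA of mouse brain with an RNA-seq kit after column extraction, per the labels' protocols, and fall into 8 groups of 5 by their titles. The authors deposited raw counts for 56980 genes. STAR 2.7.10a, DESeq2 and the build mm10 were used, per the submitters' processing notes. For the annotation and strand setting of the counting, the sources used here give nothing. Libraries held 8.64 to 12.1 M counts.

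Gene IDs were matched without version to GENCODE vM21 symbols (52073, or 91.4%), which also gave exon lengths. Genes were kept by filterByExpr (minimum count 10, minimum total 15), scaled by TMM and fitted in edgeR 4.0.16 (R 4.3.3) with robust quasi-likelihood and 1 coefficient per group over all 40 libraries. The F tests are two-sided, adjusted by Benjamini and Hochberg over 17880 genes in each of 21 comparisons. An SE is the log2 fold change over the square root of F. The biological coefficient of variation was 9.14%. Correlations used log2 CPM with a prior count of 2. The script was tested on simulated data.

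Alternatives were RLE size factors, no filter, a floor of 1 CPM reached in 5 libraries, limma-voom 3.58.1 with quality weights, DESeq2 1.42.0, only the compared groups, a replicate block, 3 surrogate variables (sva 3.50.0), and each library left out. All 7 members were tested in every comparison, and the rule was to name all 7, but some are given only by a range or a count. Marker genes are named where called, at most 3 a list by p, for 3 adolescent comparisons: antibiotics under morphine, morphine on antibiotics, and both treatments. Genes named elsewhere, for other tools or below the threshold were chosen after their values were seen. Members and lists were chosen with earlier results of these data known. Results of some listed genes are not reported here.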

Additional observations from a re-analysis of the deposited data

Results flagged for a closer look

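In 56 sets of 5 libraries, 1 for each subunit and group, 3 had a library whose gap to its nearest neighbour was over 0.71 of the range of the set, where chance gives about 1 in 20. Gabra2 was at 71.9 CPM in replicate 3 of adults on H2O and morphine, with the next library at 62.5 CPM. The same library had the highest Gabrb1 of the 40, at 263 CPM. Gabra3 was at 184.5 CPM in replicate 2 of adults on H2O and saline, with the next at 173.2 CPM. Gabrb2 was at 73.3 CPM in replicate 5 of adolescents on H2O and saline, with the next at 127.2 CPM. That library was also the lowest of its group in Gabra3, Gabra4 and Gabra5.

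The effect of morphine on Gabra2 in adolescents differed between antibiotics and water in a direct test by a narrow margin, with an interaction of -0.37 on the log2 scale (edgeR adjusted p = 0.0482). The effect was -0.36 on antibiotics and 0.01 on water. The interaction was no longer called when any of 16 of the 20 adolescent libraries was left out, with only the compared groups in the fit (0.0607) or with 3 surrogate variables (0.411).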

How the results depend on the processing

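Over the 7 subunits, 21 comparisons and all alternatives, 3477 of 3535 values kept their call, 32 gained one, 26 lost one, and 0 calls changed direction. For antibiotics under morphine in adolescents Gabra2 was called in all 18 alternatives (log2 fold change -0.53 to -0.39) and Gabrb1 in all 18 (-0.54 to -0.24), as was Gabra2 in all 18 for morphine on antibiotics (-0.40 to -0.29). With both treatments in adolescents 2 subunits in place of 1 were called by DESeq2, by limma-voom, with only the compared groups, with the replicate block and with 3 surrogate variables, the added one being Gabrb1. The adolescent interaction had 0 calls in place of 1 with only the compared groups and with 3 surrogate variables. Antibiotics under morphine in adults had 1 call, Gabra2, in place of 0 with 3 surrogate variables (edgeR adjusted p = 0.0441). Adults against adolescents on Abx and morphine had 3 calls in place of 1 by DESeq2, by limma-voom and with 3 surrogate variables, and 2 with the replicate block. With only the compared groups it kept 1 call, but Gabrb1 (edgeR adjusted p = 0.00489) stood in place of Gabra2 (0.0602). The cause of these changes was not tested.

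Leaving out 1 library gave 2 to 3 subunits for antibiotics under morphine in adolescents, 1 to 2 for both treatments, 0 to 1 for the interaction in adolescents, 0 to 1 for age on Abx and saline, 0 to 3 for age on Abx and morphine, 3 to 4 for age over all treatments, and 0 to 1 for morphine over all pairs. The count over all genes for antibiotics under morphine in adolescents was 1351, with 634 to 2263 when a library was left out and 663 to 2595 under the other settings.

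The replicate numbers showed no clear pairing of the samples. Of 60 pairs of libraries that share a number and an age, 23 had a correlation of deviations above 0.1 over 5000 genes (range -0.38 to 0.57). In 13 pairs the correlation was best with their own number. The labels do not say what the numbers mean, and this check cannot tell weak pairing from none. Under the replicate block Gabrb1 was added for both treatments in adolescents (edgeR adjusted p = 0.0407) and for age on Abx and morphine (0.0442), and no other subunit call changed.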
